A study of Homo sapiens with 4 samples.

Results

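The knockdown of YAP and TAZ was compared with control siRNA in cells that had all received 8Br-cAMP, on the 2 arrays of the series with that analogue out of 4 in all. KGN is a human line from an ovarian granulosa cell tumour. On the control array (siNC+8Br-cAMP) the cells had been transfected with control siRNA at 10 nM, and on the knockdown array (siYT+8Br-cAMP) with a pair of siRNAs, for YAP and for TAZ, at 5 nM each. The medium was replaced 48 h after transfection, and 8Br-cAMP, a cyclic AMP mimic that enters cells, was present at 0.5 mM for 24 h. The other 2 arrays (siNC and siYT) received the same siRNAs without the analogue and are used here only for reference. Each group held 1 array, so differences are given as sizes, with no replicate check and no p-value. Of 19775 genes with at least 1 probe set of their own, 13675 were above a floor of 62.6 intensity units, the median of all values, on at least 1 of the compared arrays. These are the measured genes.

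YAP and TAZ (genes YAP1 and WWTR1) are transcriptional co-activators that bind DNA through TEAD factors, and the kinases of the Hippo pathway keep them out of the nucleus. In many cell types they drive genes of proliferation, cytoskeleton and matrix, and in the ovary Hippo signalling is linked to follicle growth. Cyclic AMP carries the gonadotropin signal into granulosa cells, acting through protein kinase A and CREB to switch on steroidogenic and ovulatory genes, and 8Br-cAMP stands in for that signal.

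Granulosa markers were checked first. FOXL2, the granulosa transcription factor, read 1470 on the control array and 1765 on the knockdown array, and GATA4 read 1785 and 1610. The log2 difference of CYP19A1 was 1.92. Those of WT1 (-0.95), HSD17B1 (-0.77) and INHA (-0.67) were below 0 but short of 2-fold, although the other WT1 probe set was higher (0.54). NR5A2 read 82.8 and 49.2, below the floor on the knockdown array, so its difference of -0.40 is a bound and the drop may be larger. FSHR and AMHR2, the receptors that define granulosa cells in vivo, were below the floor on both arrays, so 7 of 9 granulosa markers on the array were measured. Of these 5 were lower by any amount, with a median of -0.40 (the NR5A2 bound), against 0.14 without 8Br-cAMP. Markers of leukocytes, endothelium, epithelium and germ cells were low. The summed intensity was 223 and 143 for 6 leukocyte markers, 319 and 327 for 7 endothelial markers, and 330 and 436 for 8 epithelial markers, on the control and knockdown arrays. The leukocyte gene CD3E, the endothelial gene CDH5 and the epithelial gene EPCAM were below the floor on both. For 4 germ cell markers the sums were 134 and 217. The granulosa marker sums were 10806 and 28734, mostly CYP19A1 (6558 and 24784). Sums of fibroblast markers (59188 and 40975, 6 of 7 measured) were above these on both arrays. So were those of theca or Leydig markers (38267 and 34370, 4 of 7, nearly all STAR). Sums of Sertoli markers (11614 and 3046, 3 of 5, mostly CLDN11) were above the granulosa sum on the control array only. For smooth muscle markers they were 5155 and 2690 (4 of 6). These lists share genes with the matrix and contractile lists below. Their part in those results was not tested.

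The arrays had medians of 62.6 (control) and 66.3 (knockdown) and nearly equal trimmed means, but the knockdown array reached further at the top, with a maximum of 147293 against 97130 or less on the other 3. Signal from the 3' end of ACTB was 1.35 times that from the 5' end on this array, against 1.07 to 1.14 times on the other 3. For GAPDH the ratio was 1.13, against 0.89 to 0.96. Of 18 probe sets for control RNAs added at hybridization, 14 read higher on the knockdown array, with a median of 1.28-fold. Among probe sets of the same gene, the SD of the log2 difference was 0.54 in this comparison (8159 probe sets of 3265 genes) and 0.39 in the comparison without 8Br-cAMP. The SD of 0.54 serves below as the yardstick for a single gene, and it leaves out variation between cultures.

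Of the 13675 measured genes, 988 (7.22%) were at least 2-fold higher and 1387 (10.1%) at least 2-fold lower on the knockdown array. The median log2 difference, knockdown minus control, was -0.01 with an SD of 0.78 across genes. Large differences were more often downward. At 4-fold or more there were 76 higher and 219 lower genes, and at 10-fold or more 5 and 13. The split depended on scale. When both arrays were set equal on the hybridization controls, 411 genes were higher and 2428 lower, the share of higher genes among all those at 2-fold was 14.5% in place of 41.6%, and the median of all genes moved to -0.34. Medians of gene groups are therefore given beside the median of all genes, and under that scaling all of them shift downward together. Lists with more higher than lower members that no longer had more under that scaling were, besides those given at their place below, steroidogenesis (4 higher and 2 lower, then 4 and 5), cumulus and ovulation (4 and 2, then 2 and 2), secreted peptides (7 and 6, then 5 and 7), feedback regulators of MAP kinase (5 and 3, then 0 and 4), axon guidance (5 and 4, then 1 and 8) and lysosome and autophagy (3 and 1, then 2 and 2).

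**Figure D1:**
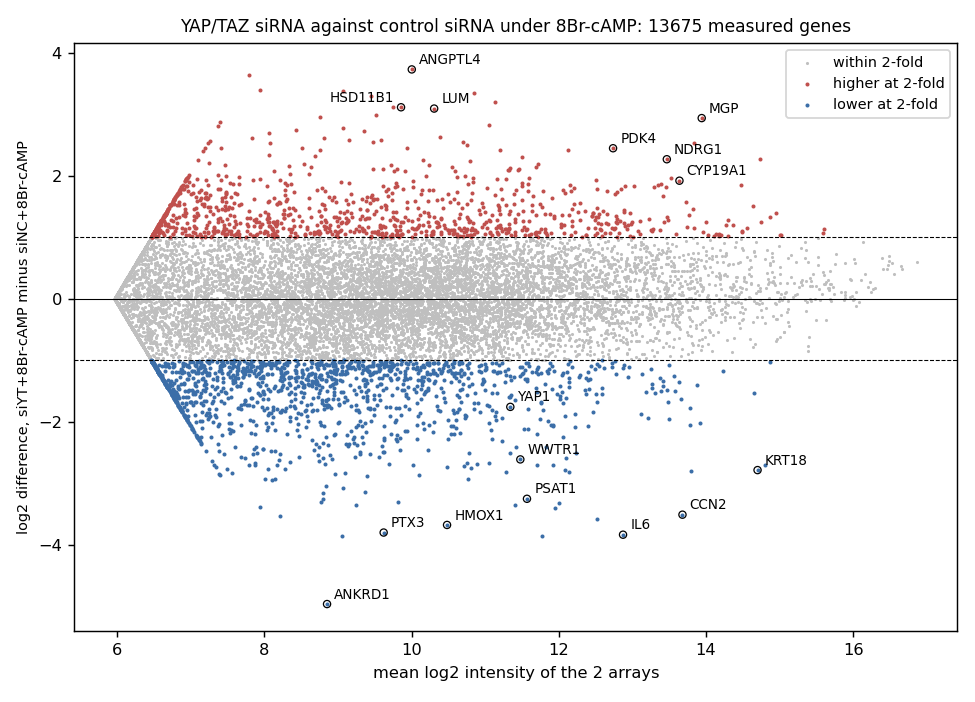
Log2 difference (siYT+8Br-cAMP minus siNC+8Br-cAMP, 1 array each) against the mean log2 intensity of both arrays, for 13675 measured genes. Red points are at least 2-fold higher (988 genes), blue points at least 2-fold lower (1387 genes), dashed lines mark 2-fold, and the straight left edges come from values set to the floor.

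The share of genes at 2-fold varied with level. In the second of 5 equal bins of mean level, between 102 and 318 intensity units, 11.2% of genes were higher and 18.9% lower. In the brightest bin, above 2272, 7.86% were higher and 5.81% lower. Of the higher genes, 154 were at the floor on the control array, and of the lower genes, 226 were at the floor on the knockdown array, so those folds are lower bounds. Where a gene at 2-fold had 2 or more measured probe sets, all of them were at 2-fold in the same direction for 92 of 496 higher genes (18.5%) and 131 of 711 lower genes (18.4%). Another probe set was at 2-fold the opposite way for 19 and 31 genes.

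The siRNA targets were lower on the knockdown array. YAP1 read 4772 on the control array and 1412 on the knockdown array (log2 -1.76), and its 3 probe sets ranged from -3.53 to -1.76. WWTR1 read 7048 and 1154 (log2 -2.61), with its 3 probe sets between -2.61 and -1.93. Every probe set of both genes was more than 3 times the yardstick below 0. In RNA from whole cultures, fewer cells expressing a gene and less RNA per cell cannot be told apart.

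Known targets of YAP and TAZ included the lowest gene of the comparison, but most of the list was within 2-fold. Of 20 measured members, 6 were at least 2-fold lower, 2 were at least 2-fold higher, and 18 were lower by any amount. The list's median was -0.50, against -0.01 for all genes. ANKRD1, a cardiac ankyrin-repeat protein often used as a YAP reporter gene, read 2581 on the control array and 82.9 on the knockdown array. CCN1 and CCN2, secreted matricellular proteins, read 20358 and 1696, and 44255 and 3888, which is 12.0-fold and 11.4-fold lower. AMOTL2, a junctional scaffold that binds YAP, read 4835 and 751. F3 (tissue factor) was 2.92-fold lower and ASAP1, a GTPase-activating protein of cell adhesions, 2.17-fold lower, although the 5 ASAP1 probe sets ran from -1.80 to 0.35. ANKRD1, CCN1, CCN2 and AMOTL2 were each far outside the yardstick and were also more than 4-fold lower without 8Br-cAMP. ANKRD1, however, ended near the floor, below the level of 250 that probe sets had to pass for the yardstick. ANKRD1, CCN2 and AMOTL2 have 1 measured probe set each. The 2 higher members were GADD45A (log2 1.36), a stress-induced growth arrest protein, and IGFBP3 (1.14), which binds insulin-like growth factors.

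The promoters of 3 of the lowest genes are shown as examples of a TEAD-type sequence. All 3 hold it, so they do not stand for the lower genes as a group. ANKRD1 and CCN2 are on the YAP/TAZ target list and CPA4 is not. Each window runs from 250 bases before to 50 bases after the start of the gene in RefSeq (GRCh38.p14), and capitals mark GGAATG, searched on both strands (CATTCC on the other). ANKRD1 lies at chr10:90921038-90921337 (minus strand), CCN2 at chr6:131951323-131951622 (minus strand), and CPA4, a secreted carboxypeptidase, at chr7:130292911-130293210 (plus strand).
ANKRD1: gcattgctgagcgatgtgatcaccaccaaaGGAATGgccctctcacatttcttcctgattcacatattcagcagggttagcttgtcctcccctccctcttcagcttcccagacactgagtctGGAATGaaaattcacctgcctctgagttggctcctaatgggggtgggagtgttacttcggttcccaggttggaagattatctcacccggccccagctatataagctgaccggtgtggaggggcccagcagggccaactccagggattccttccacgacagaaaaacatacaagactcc
CCN2: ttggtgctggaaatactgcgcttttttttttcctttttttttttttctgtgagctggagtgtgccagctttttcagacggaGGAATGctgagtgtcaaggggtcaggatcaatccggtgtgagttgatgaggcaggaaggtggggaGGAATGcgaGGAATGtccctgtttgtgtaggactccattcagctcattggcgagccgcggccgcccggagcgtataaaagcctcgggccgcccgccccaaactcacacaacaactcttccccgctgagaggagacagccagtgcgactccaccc
CPA4: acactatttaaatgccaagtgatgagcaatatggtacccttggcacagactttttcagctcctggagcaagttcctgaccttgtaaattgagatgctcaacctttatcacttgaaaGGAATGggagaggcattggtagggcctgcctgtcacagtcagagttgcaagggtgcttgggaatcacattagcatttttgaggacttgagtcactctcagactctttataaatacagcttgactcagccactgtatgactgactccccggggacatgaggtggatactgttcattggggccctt
The ANKRD1 window holds the motif 220 and 128 bases before the start, and the CCN2 window 169, 104 and 95 bases before it. CPA4 read 12981 on the control array and 1303 on the knockdown array, and its window holds 1 match, 134 bases before the start. Over all 27305 RefSeq promoters of this length, 14.0% hold GGAATG. The share was 11.1% for measured genes with a promoter (11069 genes), 11.8% for the lower and 10.1% for the higher genes at 2-fold, and 7 of 16 for the YAP/TAZ target list. Among members of that list at 2-fold lower, 2 of 4 with a promoter hold GGAATG. A match is a description of the letters and not evidence of binding.

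Among 30 measured genes of the Hippo pathway, 9 were at least 2-fold lower and 3 higher, with a median of -0.30. Besides YAP1, WWTR1 and AMOTL2, the lower genes included AJUBA, a LIM protein that restrains the LATS kinases (2657 to 595, all 3 probe sets between -3.12 and -1.74). STK3, the MST2 kinase, was 3.54-fold lower by its representative probe set, but its other probe set was higher (0.85). TEAD3 was at least 3.04-fold lower, ending at the floor. VGLL3, a TEAD cofactor, differed by -1.59 with a second probe set at 0.40, the atypical cadherin FAT4 was 2.80-fold lower, and the scaffold WWC1 was 2.41-fold lower. The higher genes were VGLL4, which competes with YAP for TEAD (591 to 2352, probe sets at 1.62 and 1.99), the angiomotin AMOTL1 (1028 to 3109), and the kinase MAP4K4 (3.29-fold, but probe sets from -0.85 to 1.72).

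**Figure D2:**
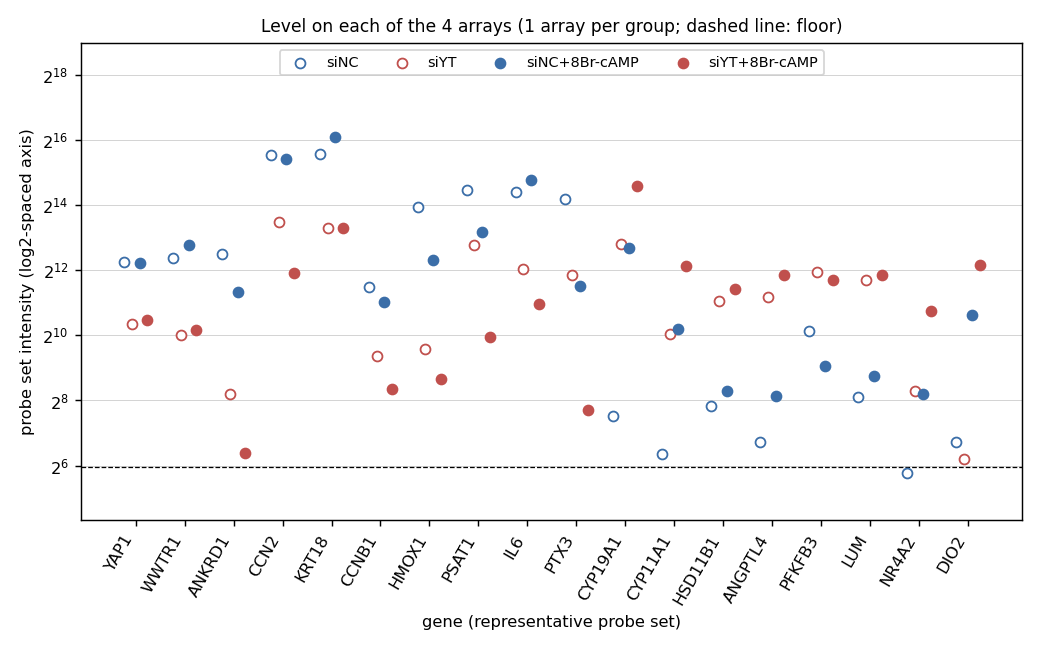
Intensity of the representative probe set of 18 genes on each of the 4 arrays, on a log2-spaced axis, with open circles for the arrays without and filled circles for those with 8Br-cAMP. The filled red circle (siYT+8Br-cAMP) is below the filled blue one (siNC+8Br-cAMP) from YAP1 to PTX3 and above it from CYP19A1 to DIO2.

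Cell cycle transcripts were lower almost throughout. Of 39 measured genes of mitosis, 37 were at least 2-fold lower and 0 higher, with a median of -2.05 (4.14-fold lower). DLGAP5, a spindle protein, read 1015 on the control array and 87.7 on the knockdown array. CCNA2 (cyclin A2) read 2834 and 289, with probe sets at -3.41 and -3.30. CEP55, needed for the last step of cell separation, read 1558 and 185. All 16 mitosis genes at 2-fold with several measured probe sets had them all lower, and 11 had them all at 2-fold. ZWINT and NDC80 of the kinetochore were 7.17-fold and 6.45-fold lower and the kinase NEK2 6.49-fold. CCNB1 (cyclin B1) differed by -2.68. KIF14 was at the floor on the knockdown array and at least 6.21-fold lower. TOP2A (-1.13) was among the smallest differences in the list, named after its values were seen, and it differed by -3.12 without 8Br-cAMP.

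The promoters of 3 mitotic genes that are lower here, CDK1, CCNB2 and DLGAP5, show a pair of short sequences that recur in the group; CDK1 and CCNB2 were chosen after their values were seen. Capitals mark the CCAAT box (CCAAT or its complement ATTGG) and the core of the cell cycle homology region, CHR (TTTGAA or its complement TTCAAA). The windows are chr10:60778081-60778380 (plus strand) for CDK1, chr15:59104896-59105195 (plus strand) for CCNB2, and chr14:55191536-55191835 (minus strand) for DLGAP5, all from RefSeq on GRCh38.p14.
CDK1: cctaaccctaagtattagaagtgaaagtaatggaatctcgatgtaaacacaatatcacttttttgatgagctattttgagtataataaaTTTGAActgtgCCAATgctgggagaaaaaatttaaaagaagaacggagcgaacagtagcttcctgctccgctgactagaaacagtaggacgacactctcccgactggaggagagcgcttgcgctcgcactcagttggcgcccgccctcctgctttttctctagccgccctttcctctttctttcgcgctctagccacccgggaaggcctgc
CCNB2: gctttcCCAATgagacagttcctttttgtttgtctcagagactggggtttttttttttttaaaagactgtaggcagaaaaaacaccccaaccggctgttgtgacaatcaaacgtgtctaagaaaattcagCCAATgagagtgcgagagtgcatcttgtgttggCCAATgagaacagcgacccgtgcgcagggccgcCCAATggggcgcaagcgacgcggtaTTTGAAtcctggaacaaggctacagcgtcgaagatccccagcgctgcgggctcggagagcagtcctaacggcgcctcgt
DLGAP5: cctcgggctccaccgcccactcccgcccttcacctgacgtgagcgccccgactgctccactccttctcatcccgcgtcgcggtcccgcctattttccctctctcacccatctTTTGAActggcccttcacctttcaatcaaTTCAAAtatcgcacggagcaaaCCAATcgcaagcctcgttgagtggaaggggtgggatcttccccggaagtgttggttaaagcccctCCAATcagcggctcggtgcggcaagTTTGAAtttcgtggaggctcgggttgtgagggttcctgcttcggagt
CDK1, the mitotic kinase, read 6201 on the control array and 1931 on the knockdown array, and CCNB2 (cyclin B2) read 1950 and 401. The CCNB2 window holds 4 CCAAT boxes and a CHR core 29 bases before the start. Of the 32 lower mitosis genes with a promoter in RefSeq, 26 hold CCAAT and 24 hold the CHR core. For the whole mitosis list the counts are 29 and 26 of 35. Among all promoters the shares are 35.7% and 15.4%, and among promoters of all lower genes 40.2% and 13.4%. None of the 19 lower replication genes with a promoter holds the CHR core, while 14 hold CCAAT.

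DNA replication genes were lower less uniformly, 20 of 32 measured at 2-fold and 0 higher, with a median of -1.48. CDC6, which loads the replicative helicase, read 419 and ended at the floor, at least 6.69-fold lower, with its probe sets at -2.74 and -2.70. RRM2, the small subunit of ribonucleotide reductase, read 5366 and 841, and TYMS (thymidylate synthase) 6175 and 1081. UHRF1, which maintains DNA methylation, was 6.48-fold lower, TK1 (thymidine kinase) 5.33-fold and the helicase component GINS1 5.77-fold. GINS2 ended at the floor, at least 3.58-fold lower, and PRIM1 (primase) was 3.64-fold lower.

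Of 24 regulators of G1 and the G1/S transition, 9 were at least 2-fold lower and 0 higher, with a median of -0.63. CDK6, a G1 kinase, read 4802 and 989, with 5 probe sets from -3.87 to -0.06. The E2F factors E2F8 (4.20-fold), E2F2 (at least 3.32-fold) and E2F1 (at least 2.71-fold) were lower, as were the phosphatase CDC25A (at least 2.89-fold) and the ubiquitin ligase subunit SKP2 (2.84-fold, probe sets from -2.36 to -1.49). RBL2, a retinoblastoma relative that restrains E2F, read 2971 and 409, but its other probe set differed by -0.56, and without 8Br-cAMP the gene differed by 0.38. On the list of p53 and cell death genes 3 of 23 were higher and 4 lower. GDF15, a stress cytokine, read 12448 and 59871, and BMF, a pro-apoptotic BH3 protein, was at the floor on the control array and at least 5.76-fold higher. PLK2, a polo-like kinase, was 5.99-fold lower. GADD45B was 3.64-fold lower by its representative probe set, but its probe sets ranged from -1.86 to 0.82.

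Immediate early genes were near the background, with 12.5% of 16 measured members at 2-fold each way. JUN (3436 to 1065, 4 probe sets from -2.00 to -0.37) and MYC (7167 to 2508) were at 2-fold lower, and JUND (2919 to 8570) and IER3 (7332 to 17811) at 2-fold higher. JUN differed by 0.30 without 8Br-cAMP, within the yardstick, and MYC by -1.57.

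Steroidogenic genes were mostly within 2-fold, with 4 of 25 higher and 2 lower and a median of 0.09. CYP19A1 (aromatase) read 6558 on the control array and 24784 on the knockdown array, with 3 probe sets from 0.94 to 4.23, and CYP11A1, which makes pregnenolone from cholesterol, read 1171 and 4518. HSD11B1, which regenerates cortisol, read 316 and 2728. HSD17B11, a short-chain dehydrogenase, read 847 and 3368, a difference of 1.99 that was 0.54 without 8Br-cAMP. The aldo-keto reductases AKR1C1 (14533 to 6565) and AKR1C2 (9082 to 3106), which inactivate progesterone, were lower with every probe set below 0, and they differed by -0.08 and -0.06 without the analogue. Their sequences are closely alike, so the probe sets may not read them separately. By their representative probe sets, CYP19A1 and CYP11A1 differed by 5.29 and 3.70 without the analogue, more than the 1.92 and 1.95 here. The other measured CYP19A1 probe sets differed by 3.60 and 0.47 without the analogue against 4.23 and 0.94 here. Both were below the floor on the control array without it, and the dimmer one also on the control array here. The values 3.60, 0.47 and 0.94 are therefore lower bounds, and these probe sets do not show which comparison had the larger difference.

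Of 16 measured granulosa identity genes, 1 was higher (NR2F1, COUP-TFI, 2.22-fold) and 1 lower (RUNX2, 323 to 138), while the median of -0.58 was well below that of all genes. With the mean over all probe sets the list's median was -0.15. Several members were just inside 2-fold by their representative probe sets, among them BMPR2 (-0.99), FST (follistatin, -0.97), WT1 (-0.95), LHX9 (-0.87) and GATA6 (-0.84). The other WT1 probe set was higher (0.54). Without 8Br-cAMP the list's median was 0.15. Counting genes at the floor on both arrays as 0, its median here was 0.00.

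Ovulatory and cumulus genes went both ways, 4 of 15 higher and 2 lower. PTX3, a scaffold of the cumulus matrix, read 2940 and 211, and the protease ADAMTS1, which cleaves versican, 2900 and 805 (other probe set -0.56). VCAN (versican) itself read 8697 and 22213 and HAS2, which makes hyaluronan, 259 and 753. PTGS2, the inducible cyclooxygenase, was at the floor on the control array and at least 2.87 higher on the log2 scale by its representative probe set, against 0.24 by the other. TNFAIP6, which links hyaluronan, was 2.47-fold higher, with a second probe set at -0.31.

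Components of cyclic AMP signalling were mostly within 2-fold, with 5 of 35 higher, 3 lower and a median of 0.31, or 0 and 6 at 2-fold under the control scaling. The kinase inhibitors PKIA (1.26) and PKIG (1.15) were higher and PKIB was lower (3411 to 1225, both probe sets at -1.48 and -1.37). GNAS, the stimulatory G protein, differed by 1.09 in a range of 0.10 to 1.09 over 8 probe sets, and it was under 2-fold with either normalization between arrays. CREB1 was 2.94-fold lower by its representative probe set, but 7 probe sets ranged from -1.56 to 0.54. Of 29 CREB target genes, 7 were higher and 1 lower, with a median of 0.44. NR4A2, an orphan nuclear receptor, read 295 and 1725, with all 3 probe sets between 2.55 and 3.38. PDK4, which restrains pyruvate oxidation, read 2925 and 15930, also with 3 probe sets, from 2.45 to 3.15. DIO2, which activates thyroid hormone, read 1566 and 4576 with 5 probe sets from 1.31 to 2.15, and it differed by -0.53 without 8Br-cAMP, where it was close to the floor. DUSP4, DUSP6 and PPARGC1A were between 2.09-fold and 2.54-fold higher, although the 3 DUSP4 probe sets ranged from -0.24 to 1.09. CITED2, a CBP/p300-binding regulator, was 2.36-fold lower. Under the scaling to the hybridization controls, 4 members stayed at 2-fold higher, and the list stood 0.42 above the median of all genes.

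Nuclear receptors were near the background, 2 of 27 higher and 4 lower. The retinoic acid receptors RARB and RARG ended at the floor and were at least 3.20-fold and 3.12-fold lower. The corepressor NRIP1 was 2.97-fold lower by its representative probe set and higher by the other (0.92).

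Inflammatory genes divided, 8 of 30 lower and 4 higher, and the median was 0.06. IL6 read 28316 and 1985. IL18 read 1379 and 145, a difference of -3.25 against -0.60 without the analogue. The chemokines CXCL8 (6171 to 1416), CXCL2 (3702 to 1279) and CXCL12 (1130 to 406) were lower, as was the adhesion molecule VCAM1 (1589 to 571). The other measured probe sets of CXCL8 and CXCL2 were lower but short of 2-fold (-0.80 and -0.49). CCL2 ended at the floor and was at least 2.59-fold lower. IL11, of the same cytokine family as IL6, went the other way (17829 to 42102). It and NFKB2 were named after their values were seen, and with TNFAIP6 and PTGS2 they made up the 4 higher genes. Interferon-induced genes were near the background, 5 of 35 lower (14.3%) and 2 higher (5.71%), with a median of -0.28. GBP1, a guanylate-binding protein, read 815 and 259, and the antiviral proteins MX2, IFIT1 and MX1 were 2.59-fold, 2.20-fold and 2.16-fold lower. IFI6 (33429 to 73255) and TAP1, the peptide transporter, were higher. Without 8Br-cAMP 0 of the 35 were at 2-fold lower and 4 higher, and the median was 0.10.

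**Figure D3:**
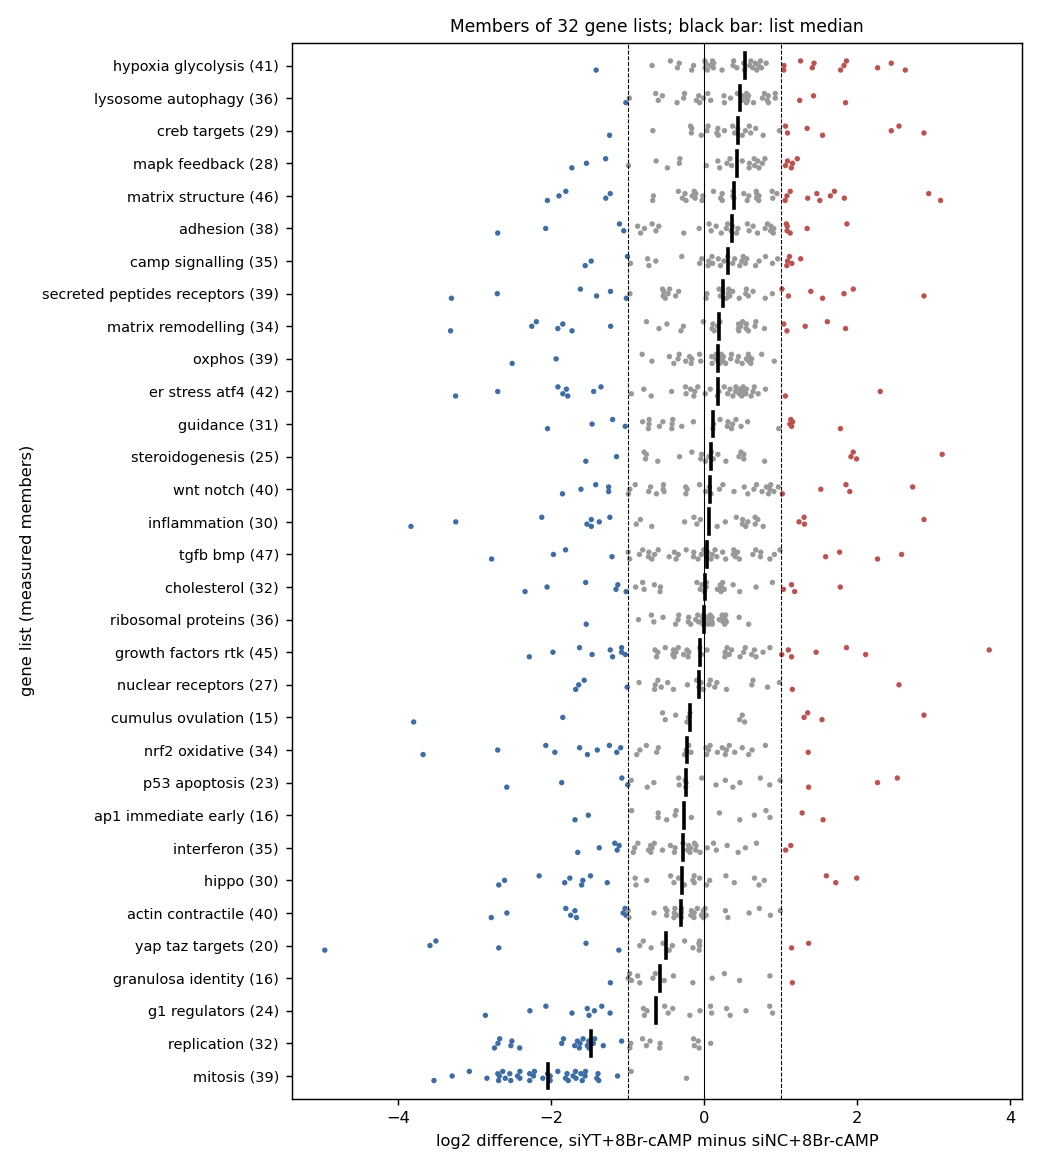
Log2 difference of each measured member of 32 gene lists, ordered by list median (black bar), with red for members at least 2-fold higher and blue for members at least 2-fold lower. The mitosis list has a median of -2.05 and the hypoxia and glycolysis list one of 0.53, and most lists hold members on both sides of 0.

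Structural matrix genes were higher more often than lower, 11 of 46 against 5, with a median of 0.38, but 7 each way under the scaling to the hybridization controls. LUM (lumican) read 434 and 3698. MGP, matrix Gla protein, read 5685 and 43484 by its representative probe set, while its second probe set differed by 0.10. DCN (decorin) was 3.14-fold higher with all 3 probe sets between 1.42 and 1.71, and the basement membrane genes LAMA4 and NID2 were 3.56-fold and 3.25-fold higher. Another basement membrane gene, NID1, went the other way (1620 to 434), and so did THBS1, an activator of TGF-beta (6591 to 1880, 7 probe sets from -4.62 to -0.32). COL1A1 read 28686 on the control array and 6926 on the knockdown array, with 4 probe sets from -2.49 to -1.02. Without 8Br-cAMP it read 35932 and 36702, so the knockdown array under 8Br-cAMP was the low one of 4.

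Of 34 matrix-modifying enzymes, 7 were lower and 5 higher. The lower genes included the proteases CPA4, PLAU, which is urokinase (1403 to 294, probe sets at -2.25 and -2.11), ADAM12 (7171 to 1566), ADAMTS1, ADAMTS5 (at least 3.77-fold) and ADAMTS12 (3.31-fold). The higher genes included the collagen lysyl hydroxylase PLOD1 (1663 to 5076) and the lysosomal protease CTSL (12038 to 43336). All 6 genes of this list at 2-fold with several probe sets had them all on the same side.

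Adhesion genes had a median of 0.36, with 6 of 38 higher and 4 lower, or 1 and 7 under the control scaling. The heparan sulfate proteoglycans GPC1 (916 to 3336) and GPC6 (4421 to 11234) and the integrins ITGB5, ITGA3 and ITGA7 were higher, the integrins by 2.12-fold to 2.18-fold. The 4 ITGB5 probe sets ranged from -0.54 to 2.60. The tight junction protein CLDN11 was 4.21-fold lower and CLDN1 2.16-fold lower. CDH6, a cadherin, read 564 and 86.8, and its 5 probe sets ranged from -2.70 to 0.18.

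Of 40 actin and contractile genes, 9 were lower and 0 higher, with a median of -0.30. The median was -0.18 with the mean over probe sets. Without probe sets that their suffix gives as common to several transcripts, such as those that represent KRT18 and TAGLN, it was -0.03, with 8 lower and 1 higher. KRT18, a keratin and thus an intermediate filament gene, read 69798 and 10131. TAGLN (transgelin) read 1091 and 182, CNN1 (calponin) 519 and 148, and ACTA2, smooth muscle actin, 3311 and 1026. DIAPH3, a formin, was 3.35-fold lower. CALD1 (caldesmon) was 3.18-fold lower by its representative probe set, but the range over 9 probe sets was -1.67 to 0.46. MYLK, the kinase of myosin light chain, was 2.09-fold lower by its representative probe set, with the other at -0.14, and differed by 0.64 without 8Br-cAMP.

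Growth factor and receptor genes went both ways, 7 of 45 higher and 9 lower. ANGPTL4 blocks lipoprotein lipase and was the highest gene above the floor on both arrays, reading 282 and 3735, with 2 probe sets at 3.72 and 3.73. It differed by 4.46 without 8Br-cAMP. VEGFA read 5628 and 20423 with all 4 probe sets between 1.86 and 2.66, PDGFD 1359 and 5872, and the receptor PDGFRB 379 and 1045. ERBB3 and KDR, receptors of neuregulin and VEGF, ended at the floor and were at least 4.88-fold and 3.94-fold lower. TGFA, a ligand of the EGF receptor, was 3.10-fold lower. The ligands VEGFA and PDGFD were thus higher with every probe set, while the VEGF receptors and co-receptors KDR, NRP1 and NRP2 were lower by their representative probe sets, although the NRP1 and NRP2 probe sets reached 0.13 and 0.20.

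TGF-beta and BMP genes were near the background, 4 of 47 each way. BMP6 read 314 and 1878, with a second probe set at 0.28, and TGFB3 386 and 1161. LTBP1, which tethers latent TGF-beta to the matrix, read 1480 and 5045. The follistatin-like FSTL3 read 2854 and 728. TGFBR1 was 6.87-fold lower by its representative probe set and higher by another (0.89). On the Wnt and Notch list 5 of 40 were higher and 5 lower. The Notch target HES1 read 254 and 1681, with probe sets at 1.45 and 2.73, while the Notch feedback gene NRARP ended at the floor. RSPO3 and its receptor LGR4, which sustain Wnt signalling, were 3.61-fold and 2.88-fold higher, and the ligands WNT2B (3.61-fold) and WNT4 (at least 3.06-fold) were lower.

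Feedback regulators of MAP kinase signalling were 5 of 28 higher and 3 lower, with a median of 0.43. The higher ones included ERRFI1, an inhibitor of the EGF receptor (3994 to 9285), and PHLDA1 (4641 to 10326), and the lower ones SPRY2 (1105 to 333) and the phosphatases DUSP14 and DUSP16. All 5 higher genes were under 2-fold when the arrays were scaled to the hybridization controls. RGS10 was higher by its representative probe set (1.14) and lower by the other (-1.33). Of 31 axon guidance genes, 5 were higher and 4 lower. SLIT2 read 1279 and 4396, SEMA3A 1663 and 3644, and SEMA4C 1264 and 306, the last with both probe sets near -2.05 and a difference of 0.68 without 8Br-cAMP.

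Genes of hypoxia and glycolysis were more often higher, 11 of 41 against 1 lower, with a median of 0.53. PFKFB3, which sets the rate of glycolysis, read 537 on the control array and 3321 on the knockdown array. NDRG1, a hypoxia-induced protein, read 5161 and 24835, and CA12, a carbonic anhydrase, 3165 and 10893, though its 6 probe sets ranged from -0.50 to 1.78. ADM (adrenomedullin) read 4051 and 14375, a difference of 1.83 that was 0.13 without 8Br-cAMP. PFKFB3, NDRG1 and CA12 differed by 1.80, 2.04 and 1.68 without it. INSIG2 and the MYC antagonist MXI1 were 2.71-fold and 2.66-fold higher. The lower gene was EPAS1, the hypoxia-inducible factor HIF-2 alpha (17878 to 6714, probe sets at -2.03 and -1.41), named after its values were seen. HILPDA, a hypoxia-induced lipid droplet protein outside the list, read 742 and 6772. Under the scaling to the hybridization controls, 8 members of the list stayed at 2-fold higher. Without 8Br-cAMP the list had 11 higher and 1 lower and a median of 0.40, and 8 genes were higher in both comparisons.

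The ANGPTL4 promoter is shown because this gene leads the higher side and is a known hypoxia and PPAR target. The window is chr19:8363905-8364204 (plus strand, RefSeq, GRCh38.p14), and capitals mark the core of the hypoxia response element, ACGTG or its complement CACGT.
ANGPTL4: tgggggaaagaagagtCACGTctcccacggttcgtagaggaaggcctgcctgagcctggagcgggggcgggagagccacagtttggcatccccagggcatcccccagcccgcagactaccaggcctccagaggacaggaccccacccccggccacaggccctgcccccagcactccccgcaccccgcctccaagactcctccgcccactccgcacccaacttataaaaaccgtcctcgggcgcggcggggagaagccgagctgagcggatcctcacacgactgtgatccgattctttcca
It holds 1 match, 234 bases before the start. The core occurs in 21.6% of all promoters, 26.1% of those of measured genes and 27.6% of the higher genes. It occurs in 17 of 38 hypoxia list genes with a promoter and in 4 of 9 that were higher, a similar share.

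Oxidative stress genes were more often lower, 10 of 34 against 1 higher, with a median of -0.22. HMOX1 (haem oxygenase) read 5115 and 400, the cystine transporter SLC7A11 9869 and 1519, and GCLM, which makes glutathione, 7918 and 1884 with all 3 probe sets between -2.07 and -1.89. NQO1, a quinone reductase, read 43706 and 15167. TXN (thioredoxin) and TKT (transketolase) were 3.87-fold and 3.09-fold lower by probe sets that their suffix gives as common to several transcripts, and differed by -0.94 and -0.34 without such probe sets. GPX3, the secreted glutathione peroxidase, was the 1 higher gene (2647 to 6790). All 7 genes of the list at 2-fold with several measured probe sets had them all on the same side. Without 8Br-cAMP 7 genes of the list were lower and 2 higher, and 6 were lower in both comparisons. HMOX1 differed by -4.35 there.

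Of 42 genes of the unfolded protein and amino acid responses, 24 were higher and 18 lower by any amount, and the list's median was 0.18. At 2-fold, 8 were lower and 2 higher. The lower ones included enzymes of serine, folate and asparagine metabolism and amino acid transporters. PSAT1 and PHGDH, of serine synthesis, read 9366 and 984, and 2820 and 809. PSPH, also of serine synthesis, went the other way within 2-fold (3876 to 5687, probe sets from -0.73 to 0.55). SHMT2 and MTHFD2, the mitochondrial folate enzymes, were 3.60-fold and 2.72-fold lower with their probe sets between -1.85 and -1.25. ASNS (asparagine synthetase) read 3427 and 995, and the glutamine transporter SLC1A5 3323 and 883. SLC7A5, the large neutral amino acid transporter, was higher (1305 to 6434), and it differed by 0.05 without 8Br-cAMP. The other gene at 2-fold higher was CRELD2 (4983 to 10396). PSPH and CRELD2 were named after their values were seen.

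Cholesterol and lipid genes were split, 6 of 32 lower and 4 higher. ACAT2, which starts sterol synthesis, read 1006 and 198, and FASN, SREBF1 and the fatty acid elongase ELOVL6 were 2.19-fold, 2.23-fold and 4.16-fold lower. SCD, the stearoyl-CoA desaturase, read 9852 and 21739 with all 4 probe sets between 1.02 and 1.40. The sterol enzymes TM7SF2 and EBP were 3.43-fold and 2.27-fold higher, with EBP probe sets from -0.11 to 1.18.

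Housekeeping lists were near the background or below it. Of 39 oxidative phosphorylation genes, 0 were higher and 2 lower, UQCRQ (11532 to 2023) and UQCRB, whose 4 probe sets ranged from -1.94 to 0.60. Of 36 ribosomal protein genes, 1 was lower (RPLP2, 224 to 76.9, by a dim probe set), and the median was -0.01. Lysosome and autophagy genes had a median of 0.46, with 3 of 36 higher, CTSL, the sialidase NEU1 (3797 to 10221) and the protective protein CTSA (10595 to 25164). ATG16L1, of autophagosome formation, was lower (420 to 206).

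Secreted peptides, their receptors and prostanoid genes were 7 of 39 higher and 6 lower. OXTR (oxytocin receptor) read 1377 and 139 and NPPB (B-type natriuretic peptide) 2652 and 407. PTGIS (prostacyclin synthase) read 24446 and 9217, with all 3 probe sets between -1.41 and -0.69, and it differed by 0.25 without the analogue. EDN1 (endothelin) was 3.07-fold lower, with its other measured probe set at -0.49. INSL3, a relaxin-like hormone, was 3.86-fold higher from 69.3, close to the floor.

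Several of the most different genes rested on a single probe set. TM9SF2, an endosomal membrane protein, read 13299 on the control array and 916 on the knockdown array by its only measured probe set, against 6669 and 16339 without 8Br-cAMP. XIAP, an inhibitor of apoptosis, was 14.4-fold lower by its representative probe set, while its other 6 ranged from -0.84 to 1.75. RBMS1, an RNA-binding protein, was 10.5-fold lower, while its other 5 ranged from -0.66 to 0.14. TMEM30A, a subunit of lipid flippases, was 10.2-fold lower with its 3 probe sets between -3.35 and -0.22. On the higher side, SFXN1, a mitochondrial serine transporter, was 8.62-fold higher, with other probe sets down to -0.25, and RUSF1 was 6.49-fold higher with probe sets down to -0.20. By contrast the 2 ANGPTL4, CCN1, CCNA2, PSAT1 and HILPDA probe sets each lay close together or on the same side beyond 2-fold.

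Among the other genes at the top of the higher side, 6 had 1 measured probe set. C11orf96 read 76.0 and 797, the homeodomain protein HOPX 224 and 2185, the ATP-gated channel P2RX1 206 and 1408, the ribonuclease ANG (angiogenin) 134 and 897, the protocadherin PCDH10 92.3 and 564 and the neuropeptide NMB 182 and 1106. Another 5 had several. The creatine transporter SLC6A8 read 260 and 2070 with its 3 probe sets between 1.39 and 2.99. GLDN read 167 and 1733 (lowest probe set 0.77), ANTXR2 581 and 5870 (0.47), NFATC2, a calcium-regulated transcription factor, 155 and 1208 (0.56) and TMEFF2 802 and 5671 (0.02). On the lower side FANCI, of DNA crosslink repair, read 799 and 76.5 with all 3 probe sets between -3.39 and -1.33. SMIM43 read 1943 and 191, COQ2, of coenzyme Q synthesis, 1327 and 149 and the noncoding RNA SBF2-AS1 1955 and 223. Of genes at the floor on 1 array, the largest bounds included C7orf57, at least 12.4-fold higher, and KCNAB1, a potassium channel subunit, at least 7.02-fold higher. On the lower side they included DTL, a ubiquitin ligase adaptor of S phase (at least 7.20-fold), and EDN2, an endothelin (at least 6.47-fold).

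**Figure D4:**
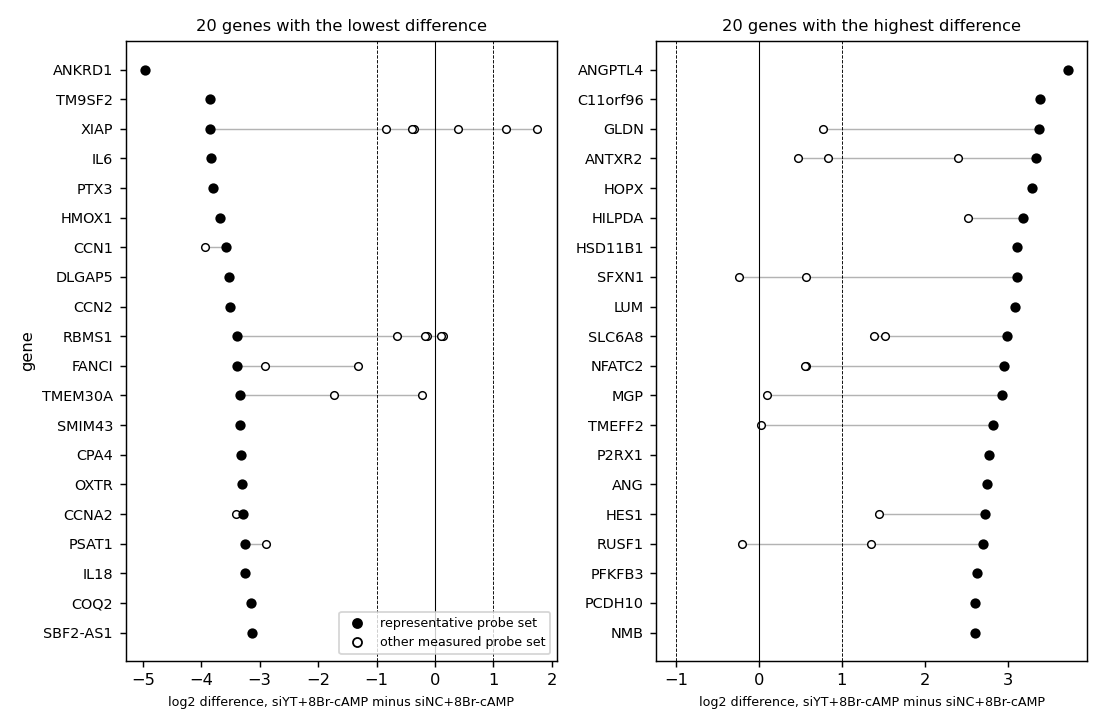
Log2 difference (siYT+8Br-cAMP minus siNC+8Br-cAMP) of every measured probe set of the 20 lowest and 20 highest genes above the floor on both arrays. Filled circles are the representative probe sets and open circles the others, and XIAP, RBMS1 and SFXN1 have open circles on the other side of 0 or next to it while CCN1, CCNA2 and ANGPTL4 do not.

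The comparison without 8Br-cAMP uses the other 2 arrays and shares none with this one. Of the 988 higher genes, 352 (35.6%) were at least 2-fold higher there too and 12 at least 2-fold lower, and of the 1387 lower genes 412 (29.7%) were at least 2-fold lower too and 32 at least 2-fold higher. Over the same measured genes that comparison had 1028 higher and 867 lower genes. Among genes that were lower in both, all measured probe sets were at 2-fold for 73 of 202 (36.1%), against 33 of 348 (9.48%) for lower genes that were within 1.5-fold or opposite without the analogue. On the higher side the shares were 52 of 195 (26.7%) and 18 of 190 (9.47%). COL1A1, IL18, RBL2 and AKR1C2 are examples of genes at 2-fold lower here that differed by 0.03, -0.60, 0.38 and -0.06 without the analogue. The 3' to 5' ratios and the hybridization controls of the knockdown array moved in the same comparison, and their part in these differences was not tested.

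**Figure D5:**
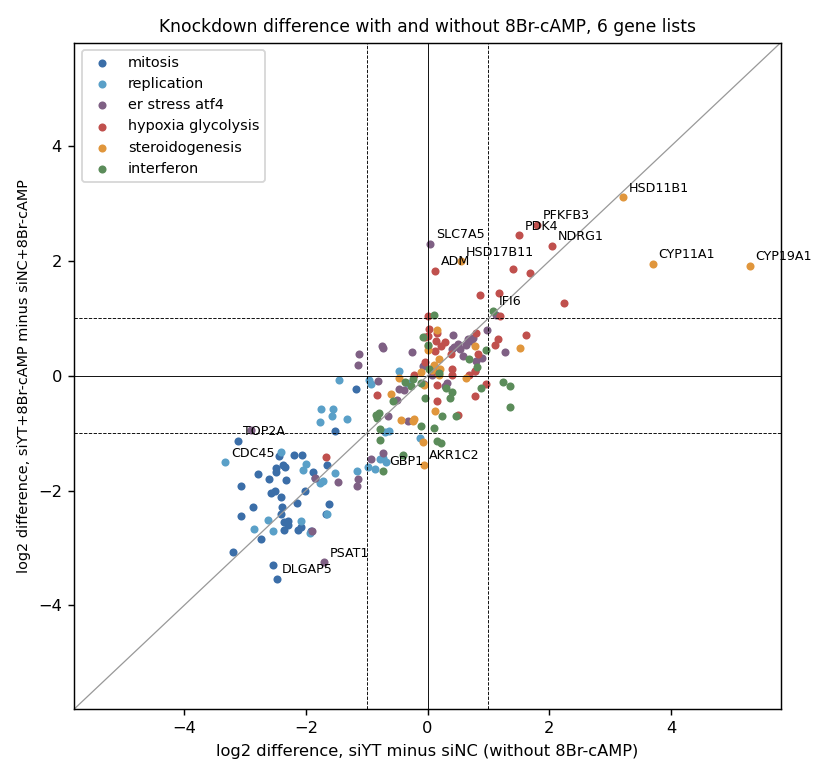
Log2 difference under 8Br-cAMP (vertical) against the difference without it (horizontal) for the measured members of 6 gene lists, with dashed lines at 2-fold and a grey line where both are equal. Each gene is placed by its representative probe set. Mitosis genes are at lower left in both comparisons, and CYP19A1 and CYP11A1 lie far below the grey line. The knockdown differences of SLC7A5, ADM and HSD17B11 are above 2-fold with 8Br-cAMP and within 2-fold without it.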

How the data were processed

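Gene expression was measured on 4 arrays (Affymetrix HG-U133 Plus 2.0), 1 per group, and the 2 with 8Br-cAMP were compared. The deposited values are probe set intensities on a linear scale. The submitters' processing notes name RMA and Affymetrix Expression Console (versions not given here), but per the file the values are not on a log scale and the arrays share a trimmed mean of 499.9, so the summary method stays uncertain. Values below the table's median (62.6, log2 5.97) were set to it before taking log2. Of 54675 probe sets, 41097 had 1 gene symbol, 1801 several and 11777 none, and 41043 matched by gene identifier. A gene was represented by its probe set with the highest mean over 4 arrays. The yardstick SD used probe sets above 4 times the floor. Named genes were the siRNA targets, the 20 highest and 20 lowest above the floor on both arrays, the 5 highest and 5 lowest bounds, members of the YAP/TAZ and Hippo lists at 2-fold, and, from every other list, at most the 8 members that differed most. The members and lists were chosen with earlier results of these data known. The depth of a hybridization is not counted, and precision is limited by 1 array per group. Alternatives were other floors, filters, thresholds, probe set rules and normalizations (limma 3.58.1 in R 4.3.3). The other steps used Python 3.11.15. Promoters are from RefSeq.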

Additional observations from a re-analysis of the deposited data

Results flagged for a closer look

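In the knockdown comparisons with and without 8Br-cAMP, which share no array, 2 of the named genes were at least 2-fold different in opposite directions. TM9SF2 differed by -3.86 with 8Br-cAMP and 1.29 without, and the difference of these differences was -5.15. GADD45A differed by 1.36 and -2.02, and the difference was 3.38. Each gene has 1 measured probe set, and with 1 array per group neither difference was tested.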

How the results depend on the processing

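The counts of higher and lower genes (988 and 1387) were 2631 and 2800 with the floor at the 25th percentile, 626 and 866 for genes above the 75th percentile, 525 and 795 with the mean over probe sets, 2573 and 2905 at 1.5-fold and 250 and 474 at 3-fold. Alternatives chosen after seeing the data gave 411 and 2428 with the arrays scaled to the hybridization controls, and 92 and 131 where every measured probe set had to be at 2-fold. Without a level filter, without shared probe sets (803 and 1097) and with quantile (1078 and 1268) or cyclic loess normalization (1057 and 1306), both counts stayed within 1.5 times. The YAP1 difference was -2.37 with the mean over probe sets. Of the list medians under these settings, 254 moved by less than the spread of 0.54 and 2 by more, the granulosa identity list to 0.00 without a level filter and the cumulus list to 0.48 above the 75th percentile. That spread is larger than most list medians, so a smaller move can still change a list's sign. Relative to all genes, 8 of 32 lists changed sign or fell to 0 without a level filter, and 2 to 5 under each other setting. The G1 list moved from -0.63 to -0.26 with the mean over probe sets. The p53 list moved from -0.24 to 0.21 without shared probe sets. Without shared probe sets, differences turned for RBMS1 (0.11), GADD45B (0.82), TGFBR1 (0.89), UQCRB (0.60), RGS10 (-1.33) and PLXNA1 (-0.06), and with the mean over probe sets for RGS10 (-0.064) and CREB3L1 (-0.026). Of 235 named genes at 2-fold, 228 stayed so under either normalization, 206 under the control scaling and 156 under the mean over probe sets. The cause of these changes was not tested. No paired analysis was possible because each group has 1 array. Signal near the floor limits the dimmest genes, whose folds are bounds.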

Other observations

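Gene families were grouped by symbol prefix after the values were seen, so a group can hold associated genes, pseudogenes and members of the lists above, such as KIF14. They are given as counts, and over all measured genes 7.22% were higher and 10.1% lower. Genes with a CENP symbol (centromere) were at least 2-fold lower for 14 of 20 measured genes and higher for 1, with a median of -1.22, and those with a KIF symbol (kinesin) were lower for 14 of 31 and higher for 2. Genes with a PSM symbol, which include proteasome subunits and associated proteins, were lower for 5 of 43 and higher for 0. That lower share is near the one over all genes. Their median was -0.30, against -0.44 without 8Br-cAMP. The 8 genes of the CCT chaperonin, which folds actin and tubulin, had a median of -0.78 with 0 at 2-fold, and without 8Br-cAMP the median was -0.69. Genes with an HLA symbol (antigen presentation) were higher for 3 of 17 and lower for 0, with a median of 0.65. Zinc finger genes (ZNF) were higher for 23 and lower for 35 of 364, and long intergenic RNAs (LINC) higher for 17 and lower for 16 of 236. These shares are near or below those over all genes.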
